A study of Homo sapiens with 4 samples.

Results

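Small nucleolar RNA (snoRNA) host genes are long noncoding RNA genes whose introns carry snoRNAs. The set described here was fixed by name as GAS5, ZFAS1, SNHG1, SNHG5, SNHG6, SNHG7, SNHG8, SNHG12, SNHG15 and SNHG16, and all 10 were found by symbol among the 16504 genes of the expression table, as 21 of 28918 transcripts. RNA-seq was performed on 4 libraries labelled NB4, an established human acute promyelocytic leukemia cell line, to ask which RNAs change when CEBPG is lowered. CEBPG is a basic leucine-zipper protein of the C/EBP family, which binds DNA as dimers. The labels give 2 control libraries (NC, CEBPG presence) and 2 CEBPG knockdown libraries (CEBPG3). In the study methods, short hairpin RNAs were delivered by lentivirus and stable cell lines were selected with puromycin. The methods do not say whether these were pools or clones, nor which hairpin the label CEBPG3 denotes. Values are FPKM, fragment numbers scaled to exon length and library size, so that levels can be compared between genes of different length.

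A snoRNA host gene is transcribed as 1 long precursor. The exons are spliced together, and the snoRNAs are trimmed out of the released introns and packed with proteins into particles that guide chemical modification of ribosomal RNA. Box C/D snoRNAs guide ribose methylation and H/ACA snoRNAs guide the conversion of uridine to pseudouridine. Many host RNAs begin with a run of pyrimidines, as the messenger RNAs of ribosomal proteins do. Because their short open reading frames end before later exon junctions, the spliced RNAs of several hosts, GAS5 being the classic case, are removed by nonsense-mediated decay (NMD) while they are translated, and they accumulate when translation is slowed.

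The start site letters are shown for SNHG5, SNHG1, GAS5, SNHG8 and ZFAS1, the hosts whose control and knockdown values did not overlap, and for SNHG16, the host with the lowest change, because the pyrimidine start is the sequence feature by which this gene class is known. RefSeq start sites on GRCh38.p14 were available here for 8 of the 10 hosts. Each line gives 10 bases before and 20 bases from the start site, with the unbroken run of C and T over the first transcribed base in capitals. SNHG7 and SNHG12, whose groups overlapped, are not printed and have such runs of 6 and 12 bases. GAS5 starts with A and SNHG16 with G, and neither has such a run at the RefSeq start. That of GAS5 lies upstream of its GENCODE span given below, so these letters may not be the start of the RNA measured.
SNHG5, chr6:85678714-85678743, minus strand: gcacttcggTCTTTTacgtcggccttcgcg
SNHG1, chr11:62855866-62855895, minus strand: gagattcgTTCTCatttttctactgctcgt
GAS5, chr1:173869026-173869055, minus strand: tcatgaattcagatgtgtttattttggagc
ZFAS1, chr20:49278632-49278661, plus strand: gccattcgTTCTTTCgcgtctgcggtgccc
SNHG8, chr4:118278752-118278781, plus strand: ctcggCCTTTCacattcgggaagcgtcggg
SNHG16, chr17:76557754-76557783, plus strand: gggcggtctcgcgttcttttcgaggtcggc
The first base was C in 6 of the 8 hosts (ZFAS1, SNHG1, SNHG5, SNHG7, SNHG8 and SNHG12), against 14.7% of 34796 distinct promoter sequences. A C followed by at least 4 bases that are each C or T was found in 3 of the 8 (ZFAS1, SNHG5 and SNHG12), against 4.07% of all promoters and 12 of 30 protein-coding snoRNA host genes with a sequence. The CEBP-ATF composite motif TGATGNAAT was in 0 of the 8 sequences from 250 bases before to 50 bases after the start site, and in 1.00% of all promoters. The CEBP core TTGCNNAA was also in 0 of the 8, and in 10.5% of all promoters. With only 8 sequences, a count of 0 at these shares does not set the hosts apart from other promoters. Both strands were searched, and the motifs can overlap in part and were counted separately. These letter matches are a description, and no factor binding was measured in these libraries.

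CEBPG, the targeted gene, was at 17.1 and 18.1 FPKM in the controls against 6.91 and 7.96 FPKM after knockdown. FPKM summed to between 346170 and 367105 per library, and read depth was unknown. The labelled cell type was checked against 12 erythroid and 12 myeloid and promyelocytic markers. Of the erythroid markers, 11 stood above 10 FPKM throughout, and the list summed to 8302 and 7836 FPKM in the control and 9284 and 8702 FPKM after knockdown. Of 11 myeloid markers that could be read, 7 were under 1 FPKM in every library, AZU1 and PRTN3 of the promyelocytic granules among them, and the list sum was 42.3 to 45.1 FPKM. SPI1, LYZ and CD33 were detected. Granule markers near 0 beside high erythroid markers go against a promyelocytic label, and cells are called here by their label only. Of the 12 erythroid markers 2 were called higher and 3 lower (41.7%, beside 20.9% of all tested genes at an adjusted p under 0.05 in limma). Of the 3 myeloid markers tested, LYZ was called lower (-0.30, limma adjusted p = 0.0289). That call was lost without control 1 (0.0800), knockdown 1 (0.140) or knockdown 2 (0.0942). LYZ had 20.1 and 18.1 FPKM in the controls against 15.0 and 15.5 FPKM after knockdown. The other 2 lay above control after knockdown and were not called, CD33 at 4.31 and 7.57 FPKM against 9.77 and 9.41 FPKM (0.65, limma adjusted p = 0.0603) and SPI1 at 15.6 and 15.2 FPKM against 17.1 and 17.2 FPKM (0.15, limma adjusted p = 0.132). The log2 fold change of CD33 ran from 0.305 to 0.997 over the fits without 1 library. The part of either list in the host gene results was not tested. Of the host genes, GAS5, SNHG6, SNHG7 and SNHG12 overlap a protein-coding gene on the other strand (ZBTB37, MCMDC2, DIPK1B and TRNAU1AP). The library kit named in the labels does not mark strand, so reads of overlapping exons cannot be told apart.

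The hosts lie on 9 chromosomes. In GENCODE release 44 on hg38, SNHG5 spans chr6:85650491-85678932 on the minus strand with 6 exons in its canonical transcript, and GAS5 spans chr1:173858559-173868882 on the minus strand with 12. SNHG1 spans chr11:62851978-62855953 on the minus strand with 11 exons, SNHG8 chr4:118278703-118285316 on the plus strand with 3, and ZFAS1 chr20:49278178-49299600 on the plus strand with 5.

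In the control libraries the hosts spanned from 20.1 FPKM for SNHG7 to 727 FPKM for SNHG5. SNHG5 ranked 60 of all 16504 genes by mean level, GAS5 ranked 110, SNHG1 244 and SNHG6 403, while SNHG7 ranked 3127. SNHG5 and GAS5 together held 66.5% of the FPKM of the 10 genes. By control mean the order was SNHG5, GAS5, SNHG1, SNHG6, SNHG16, SNHG8, ZFAS1, SNHG15, SNHG12 and SNHG7. The ranges over the 4 libraries overlapped between SNHG16 and SNHG8, between SNHG8 and ZFAS1, and between SNHG12 and SNHG7, so these neighbours were not separated by their spread.

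**Figure D1:**
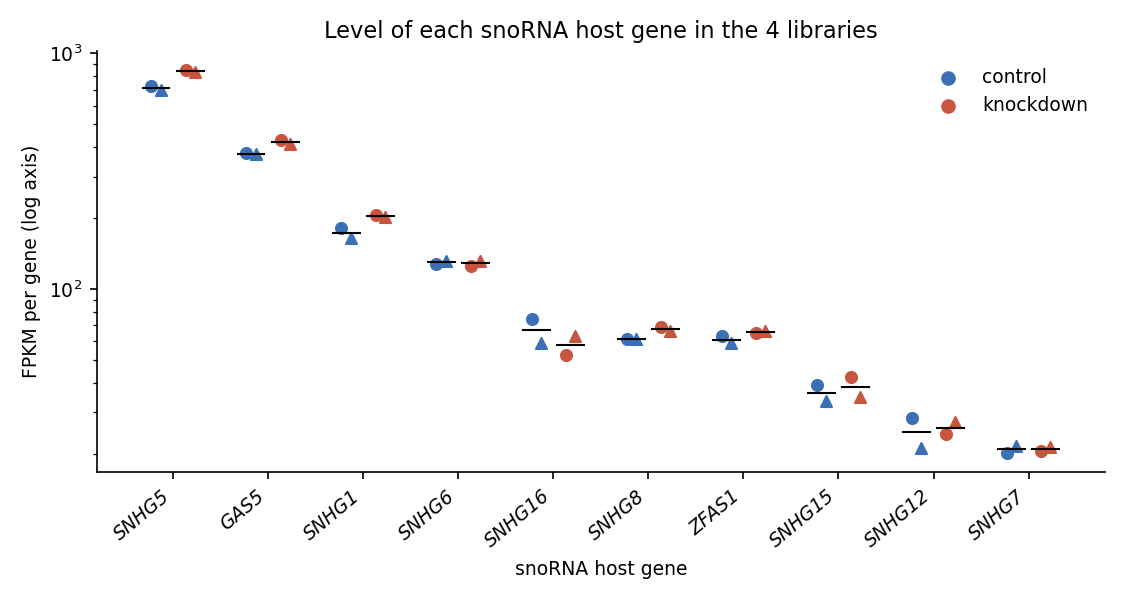
FPKM of each host gene (log axis) in the control (blue) and knockdown (red) libraries, with circles for replicate 1, triangles for replicate 2 and bars for group means. SNHG5 lies between 700.4 and 851 FPKM and SNHG7 between 20.1 and 21.5 FPKM, and the 2 groups do not overlap for SNHG5, GAS5, SNHG1, SNHG8 and ZFAS1.

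SNHG5 and SNHG1 were higher in the knockdown, each at 118% of the control level, and no host was called lower. The other 8 were not distinguished from no change. Changes are differences of log2(FPKM + 1) from a limma fit over the 10968 genes averaging 1 FPKM or more, adjusted by Benjamini-Hochberg over all of them. The count of 2 of 10 stands beside 20.9% of all tested genes called in either direction, 10.9% called higher and 9.99% called lower, so the hosts were called about as often as other genes. In 5 of the 10 hosts both knockdown libraries lay above both control libraries, against 34.3% of all tested genes, and in 0 of the 10 both lay below, against 30.5% (64.8% of all tested genes did not overlap in one direction or the other). Values lay above 0 for 8 of the 10, against 52.7% of tested genes. The median log2 fold change of the 10 was 0.093, beside 0.015 over all tested genes. Both medians were higher without control 1 and lower without control 2 (0.038 and -0.011 over all tested genes). None of the 10 passed the cut-off of the study methods, a log2 fold change beyond 1 in either direction and an unadjusted p under 0.05, applied here to the limma fit, which 0.602% of tested genes passed. An unadjusted p under 0.05 was found for 4 of the 10, against 37.0% of tested genes. Nothing in the labels says whether the replicates are separate cultures, so p-values measure only the spread between these libraries.

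Among the hosts of box C/D snoRNAs, SNHG5 carries the U50 snoRNAs and was first described at a lymphoma translocation breakpoint. It was at 727 and 700.4 FPKM in the controls against 851 and 833 FPKM after knockdown. Both knockdown libraries were above both controls. Group means were 714 ± 18.9 FPKM (SD, n = 2) in the controls and 842 ± 12.3 FPKM (SD, n = 2) after knockdown, and the log2 fold change was 0.24 (SE 0.061, limma adjusted p = 0.0357).

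SNHG1, also known as U22 host gene, carries a snoRNA in nearly every intron. It was at 182 and 165 FPKM in the controls against 206 and 203 FPKM after knockdown, so the groups did not overlap. Its log2 fold change was 0.24 (SE 0.065, limma adjusted p = 0.0455). Both calls were close to the threshold. They were kept only without control 1 (adjusted p = 0.0208 for SNHG1 and 0.0454 for SNHG5), and were lost without control 2 (0.117 and 0.0961), without knockdown 1 (0.241 and 0.292) and without knockdown 2 (0.197 and 0.226). The log2 fold change itself ranged from 0.17 to 0.30 for SNHG1 and from 0.21 to 0.26 for SNHG5 in these 4 fits, so the changes of these 2 hosts were not separated by size.

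GAS5, named for its accumulation in growth-arrested cells, was at 376 and 373 FPKM in the controls against 427 and 410.3 FPKM after knockdown. Both knockdown libraries were above both controls, but the change of 0.16 (95% interval 0.022 to 0.30) had an adjusted p of 0.0951 in limma and was not called. It was called when the columns were scaled to one sum (0.14, adjusted p = 0.0357).

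ZFAS1 starts beside the ZNFX1 gene, on the other strand. It was at 63.0 and 58.9 FPKM in the controls against 64.8 and 66.3 FPKM after knockdown. These groups did not overlap either, with a log2 fold change of 0.10 (95% interval -0.040 to 0.25, limma adjusted p = 0.258). The change was 0.153 without control 1 and 0.056 without control 2.

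SNHG6 and SNHG16, the other C/D hosts, were not called and had fitted values below 0 with intervals that reach above 0. SNHG6, the host of U87, was at 128 and 132 FPKM in the controls against 125 and 131 FPKM after knockdown, with overlapping groups and a change of -0.017 (95% interval -0.154 to 0.121). SNHG16 was at 74.4 and 59.0 FPKM in the controls against 52.7 and 63.2 FPKM after knockdown. Its groups overlapped, and its value of -0.20 (95% interval -0.495 to 0.10) was -0.033 without control 1 and -0.36 without control 2, so single libraries decided it.

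Hosts with H/ACA snoRNAs were SNHG7, SNHG8 and SNHG15, and SNHG12 carries both classes. SNHG8 was at 61.2 and 61.3 FPKM in the controls against 69.0 and 66.6 FPKM after knockdown. Both knockdown libraries lay above both controls, with a change of 0.14 (95% interval 0.012 to 0.28, limma adjusted p = 0.109). SNHG15, a short-lived RNA, was at 38.9 and 33.5 FPKM against 42.2 and 34.7 FPKM, and the groups overlapped.

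SNHG12 was at 28.3 and 21.2 FPKM in the controls against 24.3 and 27.3 FPKM after knockdown, also with overlap. SNHG7 was at 20.1 and 21.5 FPKM against 20.5 and 21.3 FPKM, which gives a change of 0.0075 (95% interval -0.146 to 0.161). For SNHG12 and SNHG15 the 95% intervals ran from -0.24 to 0.38 and from -0.18 to 0.34, wide enough to hold a change of the size seen in SNHG5. The intervals of GAS5, SNHG8 and ZFAS1 given above also hold a change of that size.

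The median log2 fold change was 0.13 over the 6 box C/D hosts and 0.076 over the other 4. The order of these medians turned without control 1, so the classes were not told apart. The hosts held 0.463% and 0.470% of all FPKM in the controls and 0.513% and 0.521% in the knockdown libraries, and their summed level in the knockdown was 112% of control. This sum is set mainly by SNHG5 and GAS5.

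**Figure D2:**
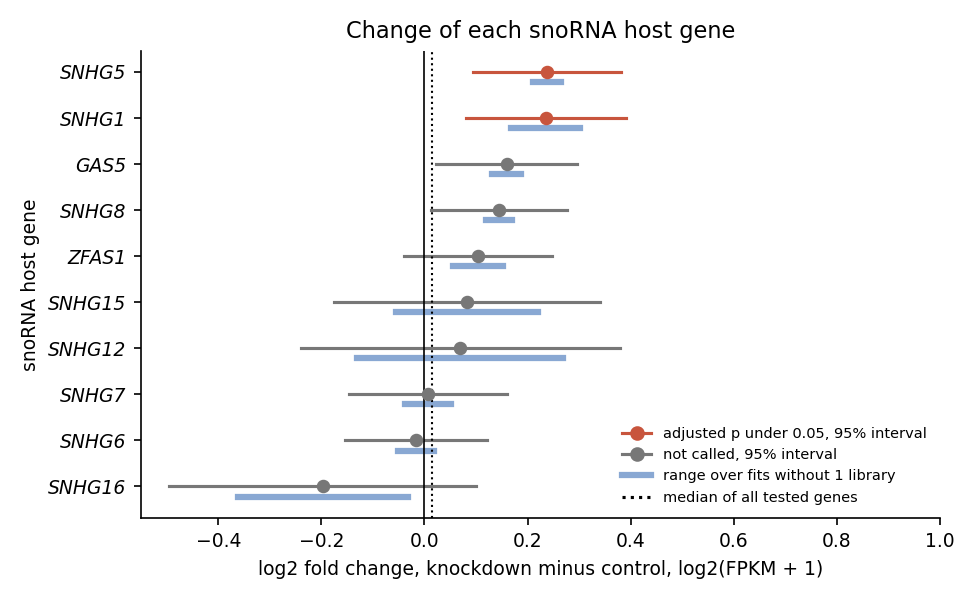
Log2 fold change (knockdown minus control, on the log2(FPKM + 1) scale) of each host gene, with its 95% interval from limma, the range over the 4 fits that each leave out 1 library (blue), and the median of all tested genes (dotted line, 0.015). SNHG5 and SNHG1 (red) have an adjusted p under 0.05, and SNHG16 lies lowest at -0.20.

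Transcripts within a host were read next. SNHG7, SNHG8, SNHG16 and ZFAS1 were listed with 15 transcripts in all, and the other 6 hosts with 1 each. Tested one by one, 0 of 19 transcripts with a mean of at least 1 FPKM had an adjusted p under 0.05 (limma, lowest 0.106), beside 0.158% of 15795 tested transcripts (0.0696% higher and 0.0886% lower), while 7 of the 19 had an unadjusted p under 0.05, 5 higher and 2 lower, against 20.3% of tested transcripts. Both knockdown libraries lay above both controls for 7 of the 19 and below for 2, against 28.1% and 25.8% of tested transcripts (53.9% in all). None of the 19 passed the cut-off of the study methods, which 2.01% of tested transcripts did. No fragments were counted here, so how reads were divided between overlapping transcripts by the authors cannot be examined.

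SNHG8 showed the largest shift within a gene. Its transcript NR_034010 was at 10.3 and 12.6 FPKM in the controls against 6.41 and 5.24 FPKM after knockdown, a change of -0.87 (SE 0.149, limma adjusted p = 0.106). It made up 16.9% and 20.5% of SNHG8 in the controls and 9.29% and 7.87% after knockdown, and these shares did not overlap. The main transcript NR_003584 lay the other way, at 40.8 and 36.8 FPKM against 49.7 and 45.6 FPKM (0.29, limma adjusted p = 0.190), and NR_034011 was at 10.02 and 11.9 FPKM against 12.8 and 15.8 FPKM. The small difference in the SNHG8 total thus joins transcripts whose values lay in opposite directions.

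In ZFAS1 the transcript NR_003604 was at 22.3 and 24.8 FPKM in the controls against 29.9 and 30.3 FPKM after knockdown, with a change of 0.34 (limma, adjusted p = 0.139). NR_036659 was at 15.8 and 7.48 FPKM within the control group alone, against 7.76 and 10.1 FPKM, so the replicates disagreed more than the groups. In SNHG16 the transcript NR_038111 was at 30.5 and 23.2 FPKM in the controls against 19.6 FPKM in both knockdown libraries (-0.42, limma adjusted p = 0.236). This transcript ranged from -0.61 to -0.23 on the log2 scale over the fits without 1 library. Its share of SNHG16 was 40.9% and 39.3% in the controls and 37.3% and 31.0% after knockdown. The main SNHG7 transcript, NR_024542, held 77.2% and 79.3% in the control and 74.9% and 74.4% in the knockdown libraries. Transcript shares have 2 values per group, for which an exact 2-sided permutation test cannot go below 0.333, so they are given without a test.

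**Figure D3:**
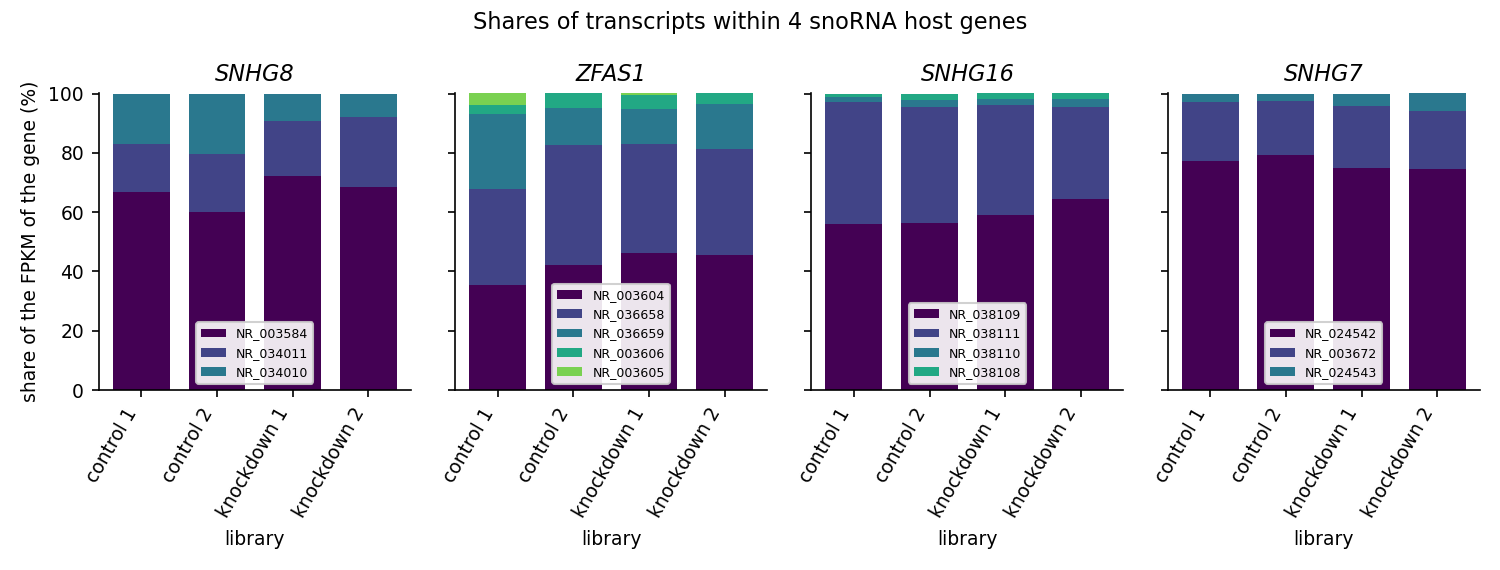
Share (%) of each transcript in the FPKM of its gene, per library, for the 4 hosts with more than 1 transcript. In SNHG8 the share of NR_034010 is 16.9% and 20.5% in the controls and 9.29% and 7.87% after knockdown.

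The snoRNAs of these hosts have rows of their own, and 35 of 37 listed names were read. In GENCODE release 44 on hg38, 22 of the 37 had a gene of that name at the host, 69 to 136 bases long, and 21 of these lay in an intron of the canonical host transcript. Of the 35, 33 had a mean of at least 1 FPKM. SNORA24, SNORD27 and SNORD31 were called higher and 0 were called lower, that is 3 of 33 beside 20.9% of all tested genes. Such rows need care: the features are shorter than usual sequencing fragments, the named kit enriches polyadenylated RNA, and unspliced host RNA or host transcripts that keep the intron can give reads there.

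SNORA24, an H/ACA snoRNA in an intron of SNHG8, and SNORD27, a box C/D snoRNA in an intron of SNHG1, are printed because they had the largest called changes among the snoRNA rows. Capitals mark the terminal ACA box of SNORA24 and the C box and D box of SNORD27, found by their letters in the GENCODE transcript sequence.
SNORA24, chr4:118279190-118279320, plus strand: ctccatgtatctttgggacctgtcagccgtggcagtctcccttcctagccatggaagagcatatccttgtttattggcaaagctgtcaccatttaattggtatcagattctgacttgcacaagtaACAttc
SNORD27, chr11:62855012-62855083, minus strand: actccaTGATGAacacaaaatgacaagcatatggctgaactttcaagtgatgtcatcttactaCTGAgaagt
SNORA24 was at 2.81 and 3.11 FPKM in the controls against 6.26 and 5.14 FPKM after knockdown, with no overlap. The log2 fold change was 0.75 (SE 0.106, limma adjusted p = 0.00557), and the call held in each of the 4 fits without 1 library (0.63 to 0.87). In GENCODE, 3 of 15 SNHG8 transcripts have an exon that covers SNORA24. Whether the rise of SNORA24 is of the snoRNA or of longer host RNA was not tested.

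Of the 8 snoRNAs read from SNHG1, SNORD27 was at 21.1 and 20.1 FPKM in the controls against 26.0 and 26.4 FPKM after knockdown (0.33, limma adjusted p = 0.0128), and SNORD31 was at 30.8 and 29.2 FPKM against 36.1 and 36.4 FPKM (0.26, limma adjusted p = 0.0241). Both rose, as SNHG1 itself did, while the other 6 ranged from -0.101 to 0.064 and were not called. These calls were lost without knockdown 1 (0.0702 and 0.124) and without knockdown 2 (0.0781 and 0.126), and that of SNORD31 also without control 2 (0.0628). Of 10 snoRNAs from GAS5, 3 had a log2 fold change above 0, against 52.7% of all tested genes, and 7 had one below. They ranged from -0.195 to 0.250, and 0 of the 10 were called. Among them SNORD47, the most abundant at 75.8 and 78.7 FPKM in the control libraries, was at 64.1 and 72.2 FPKM after knockdown (-0.18, limma adjusted p = 0.119).

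**Figure D4:**
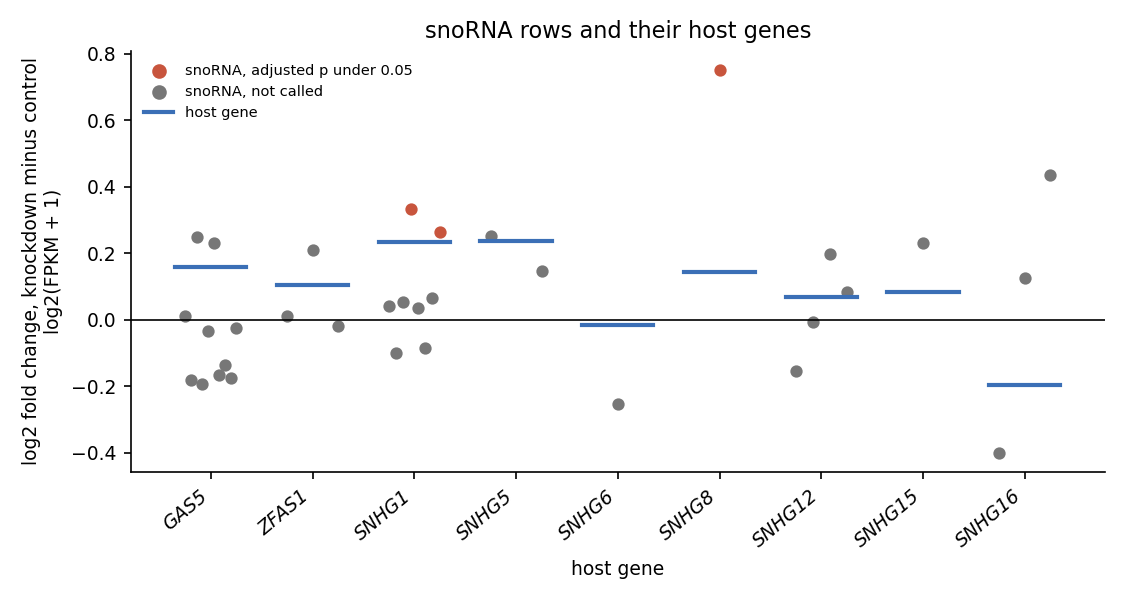
Log2 fold change (knockdown minus control, log2(FPKM + 1) scale) of each tested snoRNA row (points) above its host gene, whose own value is the blue bar. SNORA24 (0.75) stands highest, over SNHG8 at 0.14, and most points of GAS5 lie below their host at 0.16.

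Nearest protein-coding genes were read because several hosts start beside a gene on the other strand. Of 25 neighbours in the RefSeq table, 11 were tested and 1 was called (9.09%, beside 20.9% of all tested genes), CCM2, a scaffold protein gene whose start lies 13050 bases from that of SNHG15, at 18.4 and 16.3 FPKM in the controls and 21.0 and 22.4 FPKM after knockdown (0.31, limma adjusted p = 0.0339). That call was lost without control 2 (0.0961), knockdown 1 (0.0924) or knockdown 2 (0.159). SNHG1 and SLC3A2, the heavy chain of amino acid transporters at the plasma membrane, have starts 224 bases apart on opposite strands. SLC3A2 was at 191 and 171 FPKM in the controls against 199 and 184 FPKM after knockdown (0.079, 95% interval -0.0996 to 0.257), with overlapping groups. ZNFX1, whose start lies 121 bases from that of ZFAS1, was at 5.07 and 4.85 FPKM against 5.75 and 6.12 FPKM (0.22, limma adjusted p = 0.0874). ZBTB37, whose start lies 963 bases from that of GAS5, was at -0.118 on the log2 scale (limma, adjusted p = 0.50).

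The other neighbours read were not called. TRNAU1AP over SNHG12 was at -0.21, AGPAT2 and DIPK1B at SNHG7 at 0.14 and -0.038, SYNCRIP beside SNHG5 at -0.059, RCC1 beside SNHG12 at 0.028 and WDR74 beside SNHG1 at 0.015 on the log2 scale.

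Genes around the snoRNA pathway were read from lists written from general knowledge. Of 14 other noncoding hosts, 0 were called higher and 1 lower (7.14%, beside 20.9% of all tested genes), with a median log2 fold change of 0.012. That was SNHG4, at 29.9 and 28.5 FPKM in the controls against 21.2 and 22.6 FPKM after knockdown (-0.40, limma adjusted p = 0.00872, and 0.0645 without knockdown 1). SNHG29, the most abundant of this list and named after its values were seen, was at 334 and 321 FPKM against 354 and 319 FPKM. Of 41 protein-coding hosts, many of them genes of ribosomal proteins, 2 were called higher and 5 lower (17.1%, beside 20.9% of all tested genes), with a median of -0.046. RNF149, a ubiquitin ligase gene, rose by 0.47 (limma, adjusted p = 0.00539) and RPS12, a ribosomal protein gene, by 0.30 (0.0226). RPL21 and RPL23A, also ribosomal protein genes, changed by -0.65 (limma, adjusted p = 0.0037) and -0.38 (0.00631), and ribosomal protein genes, RPS12 included, have near-identical processed copies elsewhere in the genome. How reads shared with such copies were counted is not given in the sources used here, and their part in these values was not tested. HSPA8, a chaperone gene, changed by -0.28 (limma, adjusted p = 0.0254). The fifth lower call, TPT1, a translationally controlled gene, was at -0.25 (0.0266) and is named after its values were seen. Without knockdown 1 the calls on RPS12 (0.253), RPL23A (0.0817) and HSPA8 (0.237) were lost, as they were without knockdown 2 (0.174, 0.0765 and 0.194). The call on RPS12 was lost without control 2 too (0.0723), and that on HSPA8 without control 1 (0.064). That on TPT1 was lost without control 1 (0.0567), knockdown 1 (0.159) or knockdown 2 (0.178).

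Proteins that bind or assemble snoRNA particles were called lower in 3 of 20 genes and higher in 0, with a median of -0.087. The 15.0% called stands beside 20.9% of all tested genes called in either direction and 9.99% called lower. GAR1, a core protein of H/ACA particles, was at 41.2 and 40.5 FPKM in the controls against 26.9 and 24.5 FPKM after knockdown (-0.65, limma adjusted p = 0.00208), and this call held in each fit without 1 library. DKC1, the pseudouridine synthase of the same particles and itself a host on the protein-coding list, was at 107 and 105 FPKM against 82.5 and 82.9 FPKM (-0.35, limma adjusted p = 0.00713). RPAP3, of the assembly machinery, changed by -0.36 (0.0192). Both of these were lost without knockdown 1 (0.0704 and 0.106) and without knockdown 2 (0.0659 and 0.0668), and RPAP3 also without control 2 (0.0562). FBL, the methyltransferase of box C/D particles, was at 289 and 274 FPKM against 262 and 237 FPKM, which was not called (-0.18, limma adjusted p = 0.115). It is named as the counterpart of DKC1 and was chosen after its values were seen.

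Of 25 factors of NMD and messenger RNA decay, 0 were called higher and 3 lower, with a median of 0.0086. The 12.0% called stands beside 20.9% of all tested genes called in either direction and 9.99% called lower. UPF3A, an exon junction partner of the NMD machinery, was at 17.1 and 15.7 FPKM in the controls against 12.8 and 12.4 FPKM after knockdown (-0.35, limma adjusted p = 0.0159). GSPT1, a translation release factor, changed by -0.32 (0.0162) and DCP1A, of the decapping complex, by -0.28 (0.0499). Calls on UPF3A and GSPT1 were lost without knockdown 1 (0.0697 and 0.104) or knockdown 2 (0.0836 and 0.0722). That on DCP1A was lost in each fit without 1 library (0.0869 to 0.220).

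**Figure D5:**
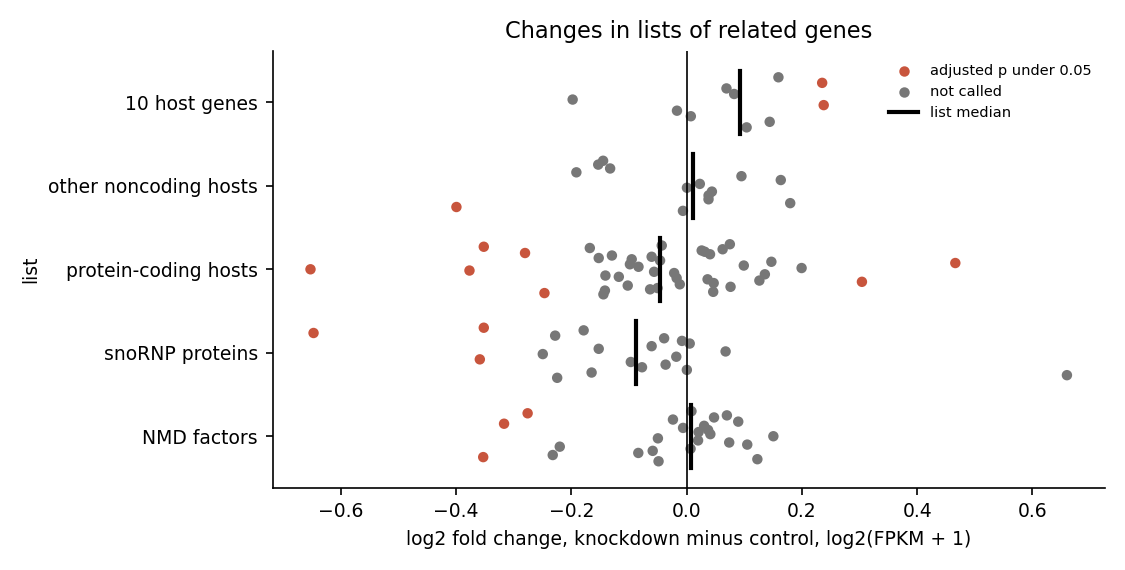
Log2 fold change (knockdown minus control, log2(FPKM + 1) scale) of each tested gene in the 10 host genes and 4 related lists, with black bars for list medians and red for an adjusted p under 0.05. The medians run from -0.087 for snoRNP proteins (proteins of snoRNA particles) to 0.093 for the 10 host genes.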

How the data were processed

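Per the labels, libraries were prepared from total RNA with a TruSeq RNA kit, which enriches polyadenylated RNA and does not mark strand. The authors filtered reads, mapped them with HISAT and deposited FPKM values for RefSeq transcripts, 1 column per library. The submitters' processing notes name HISAT2 2.0.5 and hg38; the quantifier and annotation release are not given in the sources used here. Of 29265 entries, 183 without values and 164 without a symbol (0.250% of FPKM) were left out, and transcripts were summed per symbol. Low values showed no steps of whole reads (the most common ratio of the control libraries covered 0.286% of 2798 low genes), so depth and counting error are unknown.

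Genes whose 4 libraries averaged 1 FPKM or more were compared on log2(FPKM + 1), which understates changes of low genes, in limma 3.58.1 (R 4.3.3) with variance moderated along the mean. Tests were 2-sided, and p-values were adjusted by Benjamini-Hochberg. The test of the study needs counts and was not run. Intervals are 95% intervals of the fit, not adjusted for the number of genes tested. Named were all 10 hosts, CEBPG, tested neighbours and at most 4 called genes per list and direction. The hosts and lists were chosen with earlier results of these data known. Alternatives were each library left out, single transcripts, a replicate block, no mean trend, one common column sum, scaling by median ratios, a filter at 5 FPKM or none, and a pseudocount of 0.1. Neighbours are the nearest RefSeq protein-coding genes on each side or overlapping. The values of 1 tested neighbour are not reported here.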

Additional observations from a re-analysis of the deposited data

How the results depend on the processing

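Counts are of adjusted p under 0.05 (limma). With no filter, 882 of all genes, 0 of the 10 hosts, 4 protein-coding hosts, 1 NMD factor and 0 neighbours were called. Without the mean trend 0 hosts and 0 neighbours were called, and with single transcripts 25 transcripts and 0 of those of the hosts. Columns scaled to one sum gave 17 of 41 protein-coding hosts, 6 higher and 11 lower, beside 2677 of 10968 tested genes. The main fit gave 7 of 41 beside 2288 of 10968. A mean of at least 5 FPKM and median-ratio scaling each gave 5 NMD factors, beside 2210 and 2686 genes called in all. The labels name nothing that the replicate numbers pair, and the correlation of deviations between libraries of one number was 0.101 over 2 pairs. With 2 libraries per group, deviations from the group mean mirror each other, so these 2 pairs are not independent and the value cannot decide on pairing. With the replicate number as a block, 3440 of 10968 genes and 3 of the 10 hosts were called (GAS5 added, limma adjusted p = 0.00758). That fit also called 2 of 14 other noncoding hosts, 20 of 41 protein-coding hosts, 7 of 20 snoRNP proteins and 5 of 25 NMD factors. Leaving out each library in turn gave 825 to 1925 genes, 0 to 2 of the 10 hosts, 0 to 2 other noncoding hosts, 2 to 7 protein-coding hosts, 1 to 3 snoRNP proteins, 0 to 3 NMD factors, 0 to 1 neighbours and 0 host transcripts in each fit. These fits keep 1 library in a group, which is assumed to vary like the others. The log2 fold changes that turned sign were all near 0 or widely spread: SNHG6 ranged from -0.051 to 0.018, SNHG7 from -0.037 to 0.052, SNHG12 from -0.13 to 0.27 and SNHG15 from -0.055 to 0.22 over these fits, and SNHG7 was at -0.0064 with median-ratio scaling and -0.014 with columns scaled to one sum. Of the 110 values of the 10 hosts under 11 alternatives, 88 kept direction and side of the threshold, 10 turned direction, 10 lost a call (of SNHG1 and SNHG5) and 2 gained one (of GAS5). The cause of these shifts was not tested. With 2 libraries per group and unknown depth, changes of the size seen in SNHG5 and SNHG1 sit at the limit of what the fit calls.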
